A study of Homo sapiens with 49 samples.

Results

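The 8 genes described here encode enzymes of pyrimidine synthesis and salvage: CAD, DHODH, UMPS, UCK2, CTPS2, TYMS, DUT and DCTPP1. They were chosen by name for their place in the pathway, and all 8 are among the 23621 gene entries of each expression table, spike-ins left out. All 8 averaged at least 1 FPKM in both experiments and were tested. RNA was sequenced from 2 neuroblastoma lines. In SHEP-21N a TET-off construct supplies MYCN and doxycycline (0.2 µg/ml) switches it off; 0 h has 2 libraries, while 2, 4, 6, 8, 16 and 24 h have 3 each. BE(2)-C cells, a MYCN-amplified line, carry a TET-on hairpin against TWIST1 that doxycycline (0.5 µg/ml) induces; 3 libraries had no doxycycline, and 3, 6, 12, 24 and 48 h have 3 each. Each model is 1 engineered cell line, MYCN in SHEP-21N comes from the regulated construct, and no group with doxycycline alone was analysed here. No label says that replicates came from separate cultures, so p-values measure the spread between these libraries. SHEP-21N libraries at 8, 16 and 24 h carry index sequences that were also used at 0, 2 and 4 h, and the pools are not given, so a pool difference and time cannot be told apart between 8, 16 or 24 h and 0 h.

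Pyrimidine nucleotides are made from simple precursors or recovered from nucleosides. In the first route CAD, a single protein with 3 joined activities, catalyses the opening reactions, DHODH oxidises dihydroorotate at the inner mitochondrial membrane, and UMPS completes UMP. CTP synthases then convert UTP into CTP, uridine-cytidine kinases such as UCK2 return nucleosides to the pool, TYMS makes dTMP, and DUT and DCTPP1 hydrolyse dUTP and modified or excess dCTP. CAD is a textbook target of MYC proteins, which bind the E-box CACGTG, and TYMS and DUT are known as S-phase genes with E2F sites.

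Every value comes as FPKM (fragments per length of transcript and sequencing depth) on one of 2 scales that the authors deposited. Rescaled FPKM were adjusted to spike-in RNA added at lysis of counted cells, and unnormalised FPKM were not. All log2 fold changes are of FPKM + 1, so those of low genes are understated. A gene is said to have changed where limma's p, adjusted over all tested genes by Benjamini and Hochberg, was under 0.05. In bulk RNA, fewer cells of a type and less RNA per cell cannot be told apart. The 2 scales differ most in BE(2)-C at 48 h. There, unnormalised spike-in totals were 57913 to 140361 FPKM, against 21429 to 36863 FPKM without doxycycline, and the median gene moved by -1.36 on the rescaled and +0.02 on the unnormalised scale. In SHEP-21N at 24 h the median gene moved by -0.31 on the rescaled and -0.04 on the unnormalised scale. Of the cell markers, SHEP-21N cells had 6 of 6 mesenchymal and 2 of 6 adrenergic neuroblastoma genes at an average of at least 1 FPKM, and BE(2)-C cells had 3 of 6 and 6 of 6. None of 9 epithelial, blood and Schwann markers reached 1 FPKM on average in SHEP-21N cells. KRT19, HBB and S100B did in BE(2)-C cells, and blood markers summed to as much as 38.5 unnormalised FPKM in a 3 h library.

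The enzymes span a wide range of RNA levels. At 0 h in SHEP-21N cells the order of unnormalised FPKM was TYMS (286 ± 10.1, SD, n = 2), DCTPP1 (191 ± 16.7), UCK2 (78.7 ± 5.23), DUT (70.5 ± 3.28), CAD (62.3 ± 3.88), UMPS (16.5 ± 0.960), DHODH (14.4 ± 0.244) and CTPS2 (5.90 ± 0.202). No neighbours in that order had overlapping libraries. Without doxycycline in BE(2)-C cells the order was DCTPP1 (191 ± 55.8, SD, n = 3), TYMS (164 ± 21.8), DUT (149 ± 23.1), UCK2 (43.9 ± 1.89), CAD (26.2 ± 1.54), UMPS (18.9 ± 0.946), CTPS2 (12.1 ± 0.684) and DHODH (6.74 ± 0.593). The libraries of DCTPP1, TYMS and DUT overlapped there, so their order is not resolved. The 3 deoxynucleotide enzymes are thus among the 4 most abundant of the 8 in both lines.

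After MYCN shutdown in SHEP-21N cells, 7 of the 8 enzymes fell by 24 h and CTPS2 did not. MYCN averaged 159 rescaled FPKM at 2 h and stood at 17.3, 13.9 and 11.2 rescaled FPKM at 24 h, against 723 and 855 at 0 h. On the rescaled scale 7 enzymes were lower at 24 h, beside 32.4% of all tested genes, and none was higher. The median log2 change was -0.92 over the 8 enzymes and -0.31 over the 11867 tested genes. Unnormalised, the same 7 were lower (36.4% of all tested genes) and CTPS2 was higher (28.9%), with medians of -0.65 and -0.04. The rescaled count rests in part on 1 library: without 0 h library number 2, CAD, DHODH and DCTPP1 passed and the other 4 did not. On the unnormalised scale each of the 8 calls held with any 1 of the 5 libraries left out.

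**Figure D1:**
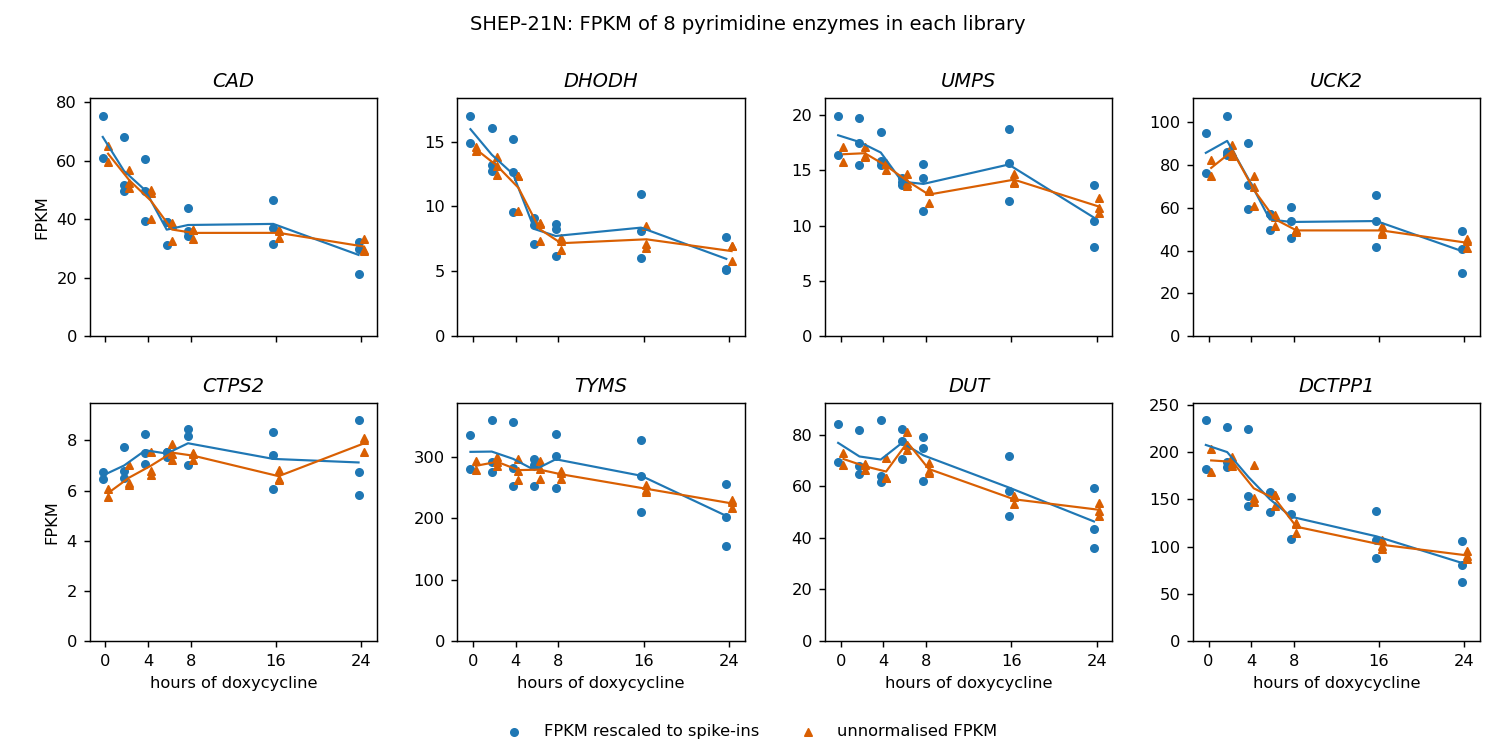
FPKM of each enzyme in every SHEP-21N library (vertical axes, each from 0) against hours of doxycycline (horizontal axes). Circles are values rescaled to spike-ins, triangles unnormalised values, and lines join the means. CAD, DHODH, UCK2 and DCTPP1 descend between 2 and 8 h, TYMS stays near its 0 h level until 8 h, and the means of CTPS2 are above that of 0 h at every later time.

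Calls for the single enzymes first appeared at different times. At 2 h no enzyme passed limma's test on either scale, beside 0.0506% of genes changed on the rescaled and 0.581% on the unnormalised scale; at an unadjusted p under 0.05, 0 passed on the rescaled scale and CAD alone on the unnormalised. At 4 h none passed on the rescaled scale (0.0843% of genes changed, and 0 enzymes at an unadjusted p under 0.05). Unnormalised, CAD, DHODH, UCK2 and DCTPP1 were then lower (18.1% of genes) and CTPS2 higher (15.8%); without 0 h library number 2 none of these passed, and without 4 h library number 1 a single one did. At 6 h CAD and DHODH were lower on the rescaled scale (7.54% of genes). UMPS joined the 4 of the earlier time on the unnormalised scale (29.8%), with CTPS2 higher (26.8%). At 8 h the calls were the same, again CAD and DHODH on the rescaled scale (3.83%), and 5 lower (29.2%) and CTPS2 higher (25%) on the unnormalised. At 16 h CAD, DHODH and DCTPP1 were lower on the rescaled scale (3.04%). All but CTPS2 were lower on the unnormalised scale (27.5%), none was higher (23.8%), and this is the first time at which TYMS and DUT passed. On the rescaled scale no call at 6, 8 or 16 h was left without either 0 h library, or without library number 2 of the time itself; without library number 0 of 8 h or of 16 h, 1 was left. The order of onset was not itself tested.

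All 3 enzymes of UMP synthesis fell by 24 h. CAD, which opens the route, had 32.3, 29.7 and 21.3 rescaled FPKM at 24 h, against 60.8 and 75.4 at 0 h. Its unnormalised FPKM were 29.2, 33.2 and 29.5 at 24 h, against 59.6 and 65.1 at 0 h. Groups did not overlap on either scale, and the log2 fold change was -1.28 (SE 0.22, adjusted p = 0.00066) on the rescaled and -1.0 (SE 0.10, adjusted p = 3.17e-07) on the unnormalised scale. Such separation was common at 24 h. Of 11867 tested genes, 5198 were lower without overlap on the rescaled scale. On the unnormalised scale 5001 were lower and 4169 higher without overlap. By 6 h the unnormalised mean of CAD was 36.4 ± 3.35 (n = 3), so most of the fall to 30.6 ± 2.21 at 24 h had occurred by then. DHODH, the mitochondrial enzyme and the target of leflunomide and brequinar, had 7.62, 5.18 and 5.07 rescaled FPKM at 24 h, against 14.9 and 17.0 at 0 h. Its unnormalised FPKM were 6.96, 5.76 and 6.95 at 24 h, against 14.2 and 14.6 at 0 h (log2 fold change -1.30, SE 0.22, adjusted p = 0.00051 rescaled; -1.03, SE 0.11, adjusted p = 1.08e-06 unnormalised). Again no 24 h library reached a 0 h library. UMPS, which makes UMP from orotate, had 13.7, 10.4 and 8.10 rescaled FPKM at 24 h, against 16.4 and 20.0 at 0 h. On the unnormalised scale UMPS had 12.5, 11.6 and 11.1 FPKM at 24 h, against 15.8 and 17.2 at 0 h, and the log2 fold change was -0.73 (SE 0.20, adjusted p = 0.00865) rescaled and -0.46 (SE 0.05, adjusted p = 2.98e-06) unnormalised. Within each library the ratio of CAD to UMPS was 2.62 ± 0.266 at 24 h (n = 3) and 3.78 ± 0.0150 at 0 h (n = 2), and that of DHODH to UMPS was 0.560 ± 0.0625 and 0.876 ± 0.0363; neither ratio was tested.

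The windows upstream of these genes are shown because the shutdown concerns a CACGTG-binding factor. They are the 250 bases before a transcription start in RefSeq (GRCh38.p14), 5′ to 3′ on the gene's strand, with CACGTG in capitals. All 8 genes matched, with 12 starts in all. A window held CACGTG in DHODH, 159 bases before the RefSeq start used, and in DCTPP1, 9 bases before its RefSeq start. No window of the other 6 genes did. The start matched for DCTPP1 may be an internal one, so its match may lie within the transcribed gene. Which starts these cells use was not examined. Of 35116 such windows over all genes 6.34% held it, the palindrome reading alike on both strands. Counted by gene, 7.73% of 27305 genes had a window with it. The CAD window, printed for comparison because CAD is the textbook target, holds no exact match. Bases after the transcription start were not searched, so a CACGTG there, in CAD or another gene, would have been missed. A match or its absence describes letters in these windows and says nothing of binding. DHODH and DCTPP1, which hold a match, were lower at 24 h, as were CAD, UCK2 and others without one. A link between a match and a fall was not tested.
DHODH, chr16:72008494-72008743, plus strand: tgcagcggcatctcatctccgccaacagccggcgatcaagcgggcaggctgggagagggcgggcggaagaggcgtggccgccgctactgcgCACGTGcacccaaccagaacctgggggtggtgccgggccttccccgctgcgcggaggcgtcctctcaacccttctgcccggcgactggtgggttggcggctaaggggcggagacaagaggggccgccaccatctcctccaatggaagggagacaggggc
DCTPP1, chr16:30429801-30430050, minus strand: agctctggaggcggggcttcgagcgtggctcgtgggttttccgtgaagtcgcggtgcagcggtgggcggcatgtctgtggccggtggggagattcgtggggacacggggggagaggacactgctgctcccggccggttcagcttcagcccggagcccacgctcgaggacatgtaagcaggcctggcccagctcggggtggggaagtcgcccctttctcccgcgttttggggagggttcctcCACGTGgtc
CAD, chr2:27217119-27217368, plus strand: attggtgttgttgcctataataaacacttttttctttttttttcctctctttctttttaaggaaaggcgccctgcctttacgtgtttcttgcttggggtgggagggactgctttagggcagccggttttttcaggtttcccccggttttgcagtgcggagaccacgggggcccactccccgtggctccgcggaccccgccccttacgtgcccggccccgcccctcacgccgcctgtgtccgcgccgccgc

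The 2 CTP synthases moved in opposite directions on the unnormalised scale. CTPS2 had 8.08, 7.55 and 8.02 unnormalised FPKM at 24 h, against 6.04 and 5.76 at 0 h, and every 24 h library lay above both 0 h libraries (log2 fold change +0.36, SE 0.06, adjusted p = 6.99e-05). On the rescaled scale CTPS2 had 8.80, 6.75 and 5.82 FPKM at 24 h, against 6.47 and 6.73 at 0 h; these groups overlapped and the test was not passed (+0.08, SE 0.15, adjusted p = 0.69). Its paralog CTPS1, the form that proliferating lymphocytes depend on, had 45.1, 44.6 and 42.0 unnormalised FPKM at 24 h, against 82.2 and 86.0 at 0 h. CTPS1 fell on both scales (-0.92, SE 0.05, adjusted p = 1.11e-09 unnormalised; -1.20, SE 0.22, adjusted p = 0.00085 rescaled). The ratio of CTPS1 to CTPS2 within a library does not depend on scaling by a common factor, but the rescaling was not exactly such a factor. On unnormalised values it was 5.24 to 5.90 in the 24 h libraries and 13.6 to 14.9 in the 0 h libraries, without overlap. Rescaled ratios were 5.18 to 5.92 and 12.9 to 14.8. All other ratios given in the text are of unnormalised values. At 8 h the ratio of CTPS1 to CTPS2 was 7.75 ± 0.373 and at 16 h 9.52 ± 0.495 (SD, n = 3 each), so the mean was higher at 16 h than at 8 h. The ratio was not tested.

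**Figure D2:**
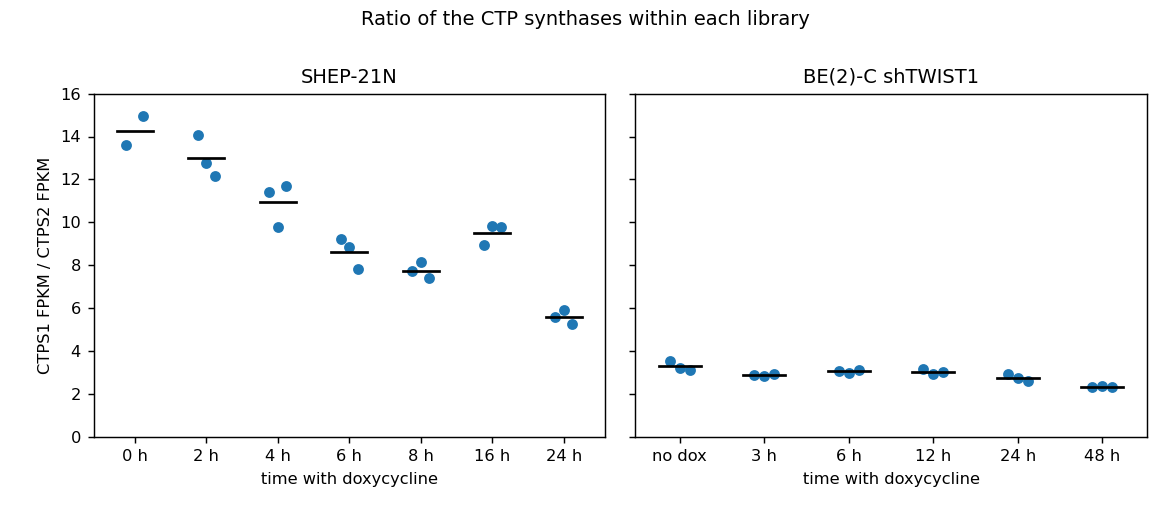
Ratio of CTPS1 to CTPS2 FPKM (vertical axis, from 0, unnormalised values) in each library by time with doxycycline (horizontal axis), SHEP-21N on the left and BE(2)-C on the right. Dots are libraries and bars are means. In SHEP-21N the ratio is 14.3 on average at 0 h and 5.58 at 24 h, and in BE(2)-C it lies between 2.33 and 3.53 in the libraries at 48 h and without doxycycline.

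UCK2, the uridine-cytidine kinase with the higher activity of the family, fell by 24 h. Its rescaled FPKM were 49.4, 40.5 and 29.6 at 24 h, against 76.3 and 95.3 at 0 h (log2 fold change -1.11, SE 0.23, adjusted p = 0.0019). Unnormalised FPKM were 44.5, 45.3 and 41.3 at 24 h, against 75.0 and 82.4 at 0 h (-0.83, SE 0.07, adjusted p = 1.22e-07), and the groups did not overlap on either scale. At 2 h UCK2 stood at 86.3, 84.2 and 89.7 unnormalised FPKM, above both 0 h libraries, without passing the test (+0.14, SE 0.07, adjusted p = 0.48). The paralog UCK1 had 25.6, 21.4 and 23.2 unnormalised FPKM at 24 h, against 29.3 and 33.5 at 0 h, and also fell (-0.41, SE 0.08, adjusted p = 0.00044; rescaled -0.68, SE 0.23, adjusted p = 0.026). UCKL1, a further family member, did not pass on either scale at 24 h (-0.21, SE 0.10, adjusted p = 0.074 unnormalised; -0.49, SE 0.21, adjusted p = 0.075 rescaled). The ratio of UCK2 to UCK1 was 1.88 ± 0.208 at 24 h (n = 3) and 2.51 ± 0.0722 at 0 h (n = 2).

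All 3 deoxynucleotide enzymes fell by 24 h. DCTPP1, which clears dCTP and its modified forms, had 106, 80.4 and 62.0 rescaled FPKM at 24 h, against 182 and 234 at 0 h (log2 fold change -1.34, SE 0.25, adjusted p = 0.00093). Its unnormalised FPKM were 95.4, 89.8 and 86.8 at 24 h, against 180 and 203 at 0 h (-1.07, SE 0.09, adjusted p = 6.21e-08). Means of DCTPP1 on that scale went on descending, with 151 ± 6.96 at 6 h, 102 ± 4.92 at 16 h and 90.7 ± 4.40 at 24 h. DUT, which keeps dUTP out of DNA, had 59.3, 43.5 and 36.2 rescaled FPKM at 24 h, against 69.4 and 84.2 at 0 h (-0.74, SE 0.22, adjusted p = 0.014). Its unnormalised FPKM were 53.5, 48.5 and 50.5 at 24 h, against 68.2 and 72.9 at 0 h (-0.47, SE 0.06, adjusted p = 5.37e-06). At 6 h DUT stood at 75.9, 81.1 and 73.9 unnormalised FPKM, above both 0 h libraries, but the test was not passed (+0.12, SE 0.06, adjusted p = 0.080). TYMS, the target of 5-fluorouracil, had 255, 202 and 155 rescaled FPKM at 24 h, against 281 and 336 at 0 h (-0.62, SE 0.23, adjusted p = 0.0434). Its unnormalised FPKM were 230, 226 and 217 at 24 h, against 279 and 293 at 0 h (-0.35, SE 0.05, adjusted p = 4.73e-05). The rescaled call for TYMS was lost without 4 of the 5 libraries in turn (adjusted p up to 0.295).

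Upstream windows of TYMS and DUT are shown for E2F-type matches, in capitals: TTTCCCGC, TTTGGCGC, TTTCGCGC or TTTGCCGC on either strand. Of all windows 2.79% held at least 1, and 3.40% of genes had such a window. TYMS had 1, starting 39 bases before its start, and DUT had 2 at the last of its 4 RefSeq starts, 42 and 27 bases before it. The other 6 genes had none in their windows.
TYMS, chr18:657403-657652, plus strand: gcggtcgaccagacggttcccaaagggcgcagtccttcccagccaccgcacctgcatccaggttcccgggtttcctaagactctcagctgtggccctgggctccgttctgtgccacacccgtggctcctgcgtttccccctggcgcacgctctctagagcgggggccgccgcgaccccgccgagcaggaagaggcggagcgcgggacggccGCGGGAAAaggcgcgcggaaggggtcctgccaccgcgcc
DUT, chr15:48331947-48332196, plus strand: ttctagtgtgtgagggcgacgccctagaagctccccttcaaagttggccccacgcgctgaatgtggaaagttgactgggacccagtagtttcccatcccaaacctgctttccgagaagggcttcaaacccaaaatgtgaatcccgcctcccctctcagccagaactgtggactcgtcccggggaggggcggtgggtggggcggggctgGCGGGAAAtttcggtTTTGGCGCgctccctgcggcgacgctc

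Proliferation markers are given beside these enzymes. Of 12 such genes, 5 were lower at 24 h and none higher on the rescaled scale, where 32.4% of all genes were lower. On unnormalised values 9 were lower and 2 higher, beside 36.4% and 28.9% of all genes. Their summed unnormalised FPKM ran from 1134 to 1197 at 24 h, against 1459 to 1504 at 0 h. That sum was above both 0 h libraries at 2 h (1594 to 1604), 4 h (1595 to 1662) and 6 h (1620 to 1640). Unnormalised DUT stood above them at 6 h too, without passing its test. Rescaled sums overlapped, with 1550 to 1662 at 6 h and 1477 to 1732 at 0 h. The part of cell cycling in the enzymes' levels was not tested.

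Between 24 and 16 h in SHEP-21N cells no enzyme changed on the rescaled scale by limma (7.87% of genes changed; CAD, DHODH and UMPS had an unadjusted p under 0.05). Without 24 h library number 0, 7 were lower there, and without 16 h library number 0, 5 were. Unnormalised values of UMPS (11.7 ± 0.678 at 24 h and 14.2 ± 0.417 at 16 h, log2 fold change -0.25, adjusted p = 0.00107) and TYMS (225 ± 6.75 and 248 ± 6.07, -0.14, adjusted p = 0.034) fell further, beside 18.6% of genes; the TYMS or the UMPS call was lost without any 1 of 4 of the 6 libraries. CTPS2 rose (7.88 ± 0.287 at 24 h and 6.57 ± 0.216 at 16 h, +0.23, adjusted p = 0.0043), beside 11.1% of genes. Over the whole SHEP-21N course, limma's F test passed for 6 enzymes on the rescaled scale (31.0% of genes), all but CTPS2 and TYMS, and for all 8 on the unnormalised scale (81.9%).

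After induction of the TWIST1 hairpin in BE(2)-C cells, CTPS2 alone of the 8 enzymes changed up to 24 h, being higher at 24 h on unnormalised and centred values but not on rescaled values. At 24 h 9.55% of all tested genes were higher on unnormalised values and 915 of 11433 on centred values. The count of 1 among 8 therefore does not set the enzymes apart. TWIST1 stood at 18.9, 17.7 and 17.7 unnormalised FPKM at 48 h, against 74.6, 62.1 and 57.9 without doxycycline (log2 fold change -1.78, SE 0.11, adjusted p = 9.3e-09). At 3, 6, 12 and 24 h no enzyme changed on the rescaled scale, where 0.035%, 0.035%, 0.0437% and 0.604% of genes did. None had an unadjusted p under 0.05 there by limma. The rescaled libraries spread widely at these times, with CAD between 19.2 and 65.8 FPKM over 3 to 24 h. On the unnormalised scale no enzyme changed at 3, 6 or 12 h (0.0175%, 0.481% and 4.08% of genes). At an unadjusted p under 0.05, 0 did so at 3 h, DUT at 6 h, and CTPS2 and DUT at 12 h. At 24 h CTPS2 was higher (9.55% of genes), with 13.6, 14.1 and 14.6 unnormalised FPKM, against 11.3, 12.5 and 12.5 without doxycycline (+0.21, SE 0.05, adjusted p = 0.0066), and its change on centred values was +0.21 (adjusted p = 0.0073). Without no-doxycycline library number 1, 3 enzymes were higher at 24 h and 1 at 12 h.

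At 48 h the answer depended on the scale. On rescaled values all 8 enzymes were lower, but so were 93.3% of all tested genes, so the count does not set the enzymes apart. On unnormalised values CAD and CTPS2 were higher (18.1% of genes) and none of the 8 was lower (21.3%). The median log2 change of the 8 was -1.54 on the rescaled and 0.00 on the unnormalised scale, and that of the 11433 tested genes was -1.36 and +0.02. Between 48 and 24 h all 8 were lower on rescaled values, beside 92.3% of genes. On unnormalised values CAD alone was higher (1.35%), and that call was lost without any 1 of 5 of the 6 libraries.

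**Figure D3:**
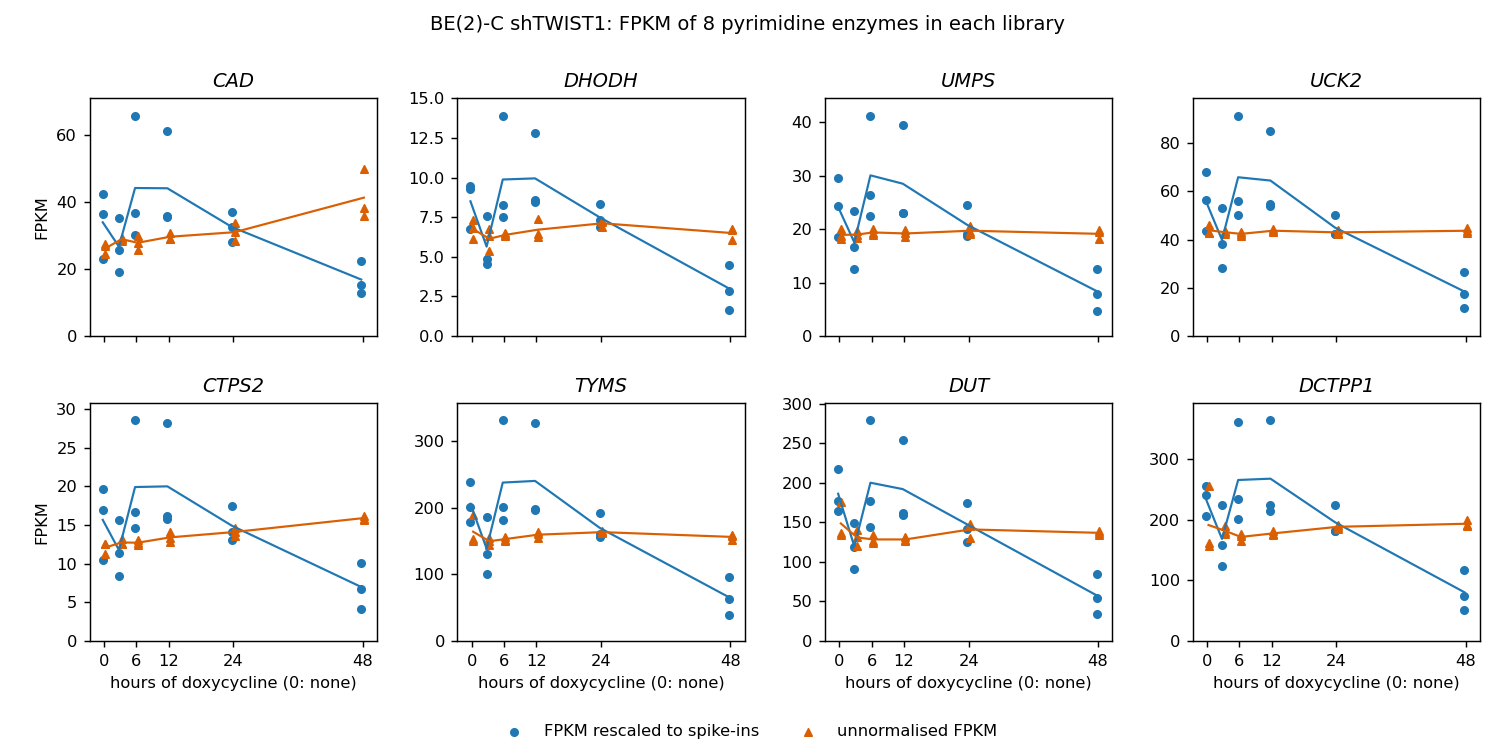
FPKM of each enzyme in every BE(2)-C library (vertical axes, each from 0) against hours of doxycycline (horizontal axes, 0 for no doxycycline). Circles are values rescaled to spike-ins, triangles unnormalised values, and lines join the means. Rescaled values of all 8 drop at 48 h, while unnormalised values stay level except for CAD and CTPS2.

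The direction for CAD, the first enzyme of the route, depended on the scale. CAD had 15.4, 22.4 and 12.8 rescaled FPKM at 48 h, against 22.9, 36.4 and 42.5 without doxycycline, where only the nearest libraries of the groups came close (log2 fold change -0.96, SE 0.36, adjusted p = 0.013). On unnormalised values it had 38.1, 35.9 and 49.9 FPKM at 48 h, against 24.4, 27.3 and 26.8 without doxycycline, again without overlap but in the other direction (+0.62, SE 0.10, adjusted p = 0.00015). Of 11433 tested genes, 8996 were lower without overlap on rescaled values, and 2256 were higher without overlap on unnormalised values. Centred on the median gene of each library, the change was +0.46 (SE 0.09, adjusted p = 0.0005). The highest of these values, 49.9, belongs to the library with the largest unnormalised spike-in total, 140361. Without that library CAD was still higher on unnormalised values, and its lowest change with any 1 library left out was +0.48. The rescaled call was lost without that library or without the no-doxycycline library number 0 (adjusted p up to 0.071).

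DHODH had 6.69, 6.78 and 6.03 unnormalised FPKM at 48 h, against 7.29, 6.82 and 6.12 without doxycycline, with overlapping groups (-0.04, SE 0.08, adjusted p = 0.68). UMPS had 19.5, 19.8 and 18.1 at 48 h, against 20.0, 18.1 and 18.8 (+0.01, SE 0.05, adjusted p = 0.84). Rescaled, DHODH fell to 3.01 ± 1.42 FPKM at 48 h, against 8.50 ± 1.51 without doxycycline (SD, n = 3 each; -1.29, adjusted p = 0.00055), and UMPS to 8.43 ± 3.95, against 24.2 ± 5.51 (-1.48, adjusted p = 0.00045). Within each library the ratio of CAD to UMPS was 1.81 to 2.75 at 48 h and 1.22 to 1.51 without doxycycline, while that of DHODH to UMPS was 0.333 to 0.343 at 48 h and 0.326 to 0.377 without doxycycline.

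CTPS2 had 16.2, 15.7 and 15.8 unnormalised FPKM at 48 h, against 11.3, 12.5 and 12.5 without doxycycline, without overlap (log2 fold change +0.37, SE 0.05, adjusted p = 2.84e-05). Rescaled, it had 6.67, 10.1 and 4.19 FPKM at 48 h, against 10.5, 16.9 and 19.6 (-1.09, SE 0.35, adjusted p = 0.0051). CTPS1 had 37.8, 36.9 and 37.1 unnormalised FPKM at 48 h, against 40.0, 39.8 and 39.1, and did not pass (-0.09, SE 0.04, adjusted p = 0.079); it was lower on centred (-0.24, adjusted p = 0.0068) and rescaled values (-1.67, adjusted p = 0.0002). The centred change of CTPS1 carries the limit of centring given below for UCK2, TYMS and DUT. On unnormalised values the ratio of CTPS1 to CTPS2 was 2.33 to 2.36 at 48 h and 3.13 to 3.53 without doxycycline. CTPS2 is therefore the enzyme of the 8 that was higher on unnormalised values at the last time of both experiments, which share no libraries. Of all tested genes, 28.9% were higher at 24 h in SHEP-21N cells and 18.1% at 48 h in BE(2)-C cells on that scale. CMPK1, RRM2B and NT5E, other genes of pyrimidine metabolism, were also higher at both times. On rescaled values CTPS2 was not higher in either experiment.

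UCK2 had the smallest change of the 8 on unnormalised values, with 43.3, 42.9 and 44.7 FPKM at 48 h, against 46.0, 42.6 and 42.9 without doxycycline (log2 fold change -0.01, SE 0.04, adjusted p = 0.91). Its paralogs fell on both scales. UCK1 had 13.9, 11.9 and 15.6 unnormalised FPKM at 48 h, against 32.1, 22.7 and 24.9 (-0.89, SE 0.10, adjusted p = 7.4e-06), and UCKL1 had 17.5, 17.1 and 17.8, against 33.1, 23.5 and 25.6 (-0.61, SE 0.10, adjusted p = 0.00015). The ratio of UCK2 to UCK1 was 3.19 ± 0.372 at 48 h and 1.68 ± 0.225 without doxycycline (SD, n = 3 each), higher at 48 h, whereas it was lower at 24 h in SHEP-21N cells; this difference between the lines was not tested.

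TYMS had 159, 157 and 152 unnormalised FPKM at 48 h, against 189, 153 and 150 without doxycycline (log2 fold change -0.06, SE 0.07, adjusted p = 0.50). DUT had 137, 140 and 134 at 48 h, against 175, 134 and 136 (-0.11, SE 0.09, adjusted p = 0.35). DCTPP1 had 190, 191 and 199 at 48 h, against 256, 157 and 161 (+0.05, SE 0.13, adjusted p = 0.77). For all 3 the highest control value comes from no-doxycycline library number 1, whose unnormalised FPKM over all genes summed to 1028220, against 736423 and 792122 in the other 2. Without it, DCTPP1 was higher at 48 h (+0.28, adjusted p = 2.2e-05), and TYMS and DUT did not pass. Of the 12 proliferation markers 8 were lower and none higher on unnormalised values, where 21.3% of all genes were lower, with sums of 1473 to 1503 FPKM at 48 h, against 1804 to 1891 without doxycycline; on rescaled values all 12 were lower, as were 93.3% of all genes. Centred on the median gene, UCK2 (-0.18), TYMS (-0.30) and DUT (-0.34) were lower at 48 h (adjusted p = 0.028, 0.0175 and 0.0134). On centred values 2500 of 11433 tested genes were lower and 3496 higher. Centring followed the addition of 1 to rescaled FPKM, with library medians of 2.09 to 3.15 (log2) at 48 h, against 3.57 to 4.37 without doxycycline. The added 1 lessens the fall of the median gene, which moves abundant genes down on centring. Its share in these 3 changes was not tested, and unnormalised values of the 3 did not pass.

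**Figure D4:**
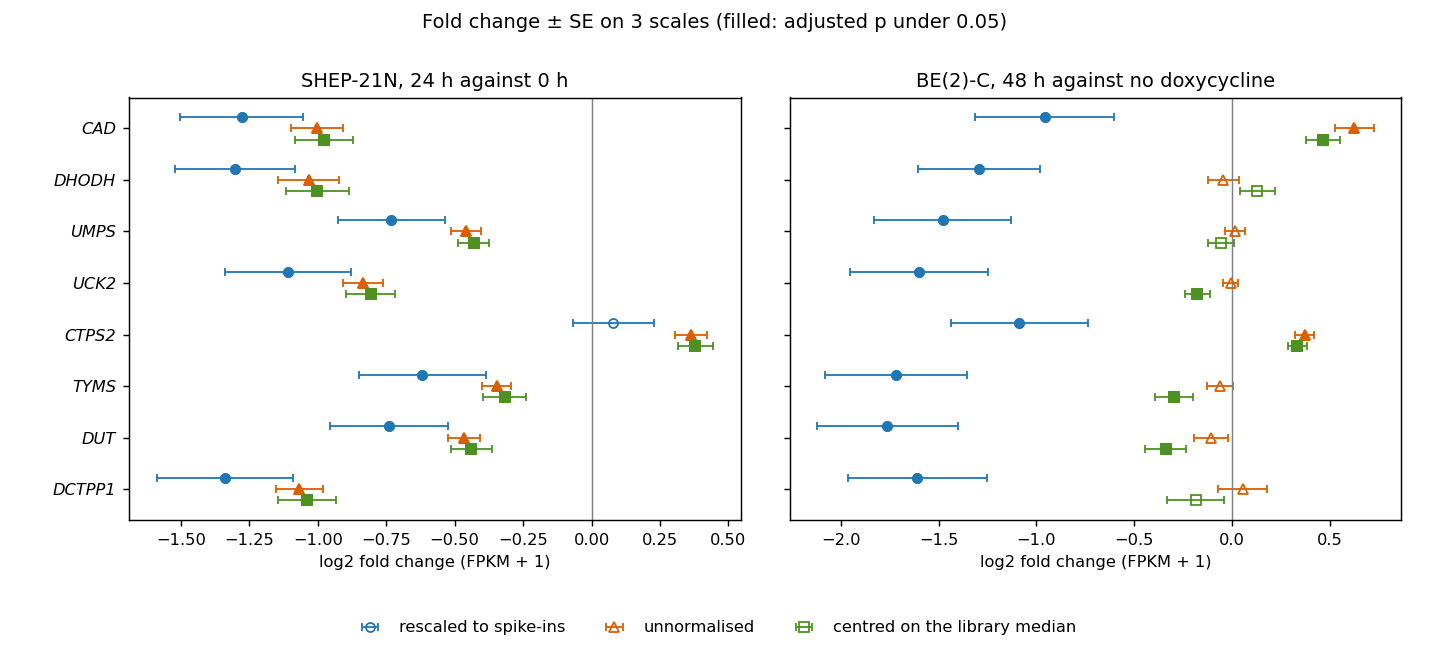
Log2 fold change with its standard error (horizontal axes, after adding 1 FPKM) of each enzyme on 3 scales, SHEP-21N at 24 h against 0 h on the left and BE(2)-C at 48 h against no doxycycline on the right. Filled symbols had an adjusted p under 0.05. In SHEP-21N the scales differ in size, while in BE(2)-C the rescaled values of all 8 lie below 0 and CAD and CTPS2 lie above 0 on the other 2 scales.

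The 38 other genes of pyrimidine metabolism, of which 32 were tested in each experiment, had counts near the background in SHEP-21N cells. At 24 h 12 were lower and 0 higher on the rescaled scale, where 32.4% of all tested genes were lower, and their median log2 change was -0.39, beside -0.31 over all genes. Unnormalised values gave 13 lower and 9 higher, beside 36.4% and 28.9% of all genes, with medians of -0.11 and -0.04. The nucleoside transporter SLC29A1 averaged 31.3 rescaled FPKM at 24 h, against 78.8 at 0 h (-1.31, SE 0.22, adjusted p = 0.0005), and its relative SLC29A2 averaged 5.17 and 11.9 (-1.07, SE 0.20, adjusted p = 0.00083). The nucleoside diphosphate kinases NME1 (622 and 1220.2, -1.01, adjusted p = 0.0077) and NME2 (995 and 1840, -0.92, adjusted p = 0.0096) fell, though these neighbouring genes are closely similar and may share reads. RRM2, the small subunit of ribonucleotide reductase, averaged 90.3 rescaled FPKM at 24 h, against 157 (-0.82, SE 0.22, adjusted p = 0.0082). The mitochondrial deoxynucleotidase NT5M (1.30 and 3.55, -1.0, adjusted p = 0.0014) and the pyrimidine nucleotidase NT5C3A (17.9 and 27.7, -0.62, adjusted p = 0.015) also fell. All of these were lower on unnormalised values too. By role, both tested transporters and CTPS1 were lower, as were 5 of 14 kinases and salvage enzymes, 2 of 6 deoxynucleotide enzymes and 2 of 9 breakdown enzymes on the rescaled scale. Of unnormalised values, 3 each in the last 3 groups were higher.

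At 48 h in BE(2)-C cells 31 of the 32 were lower on rescaled values (median -1.58), as were 93.3% of all genes. On unnormalised values 11 were lower and 6 higher (median -0.03), where 21.3% of all genes were lower and 18.1% higher (median +0.02). The 6 higher were CMPK1, NME6, RRM2B, DPYD, NT5E and NT5M, of which all but CMPK1 were higher on centred values too. The genes described next for BE(2)-C cells were all among the lower. The thymidine kinase TK1, an S-phase gene, averaged 91.5 unnormalised FPKM at 48 h and 134 without doxycycline (-0.51, SE 0.13, adjusted p = 0.0067). NME4, a mitochondrial nucleoside diphosphate kinase, averaged 209 and 279 (-0.39, adjusted p = 0.0091), and the dCMP deaminase DCTD 24.5 and 33.1 (-0.42, adjusted p = 7.5e-05). The nucleotidases NT5C3A (18.6 and 27.0, -0.51, adjusted p = 5.4e-05) and NT5C2 (11.1 and 15.7, -0.47, adjusted p = 6.5e-05) and the uridine phosphorylase UPP1 (4.43 and 7.20, -0.55, adjusted p = 0.0099) were lower as well, UPP1 without passing on centred values (-0.27, adjusted p = 0.20). UPP1, which breaks uridine down, averaged 90.5 unnormalised FPKM at 24 h and 50.8 at 0 h in SHEP-21N cells (+0.82, adjusted p = 1.37e-06). There it was higher on centred values too but did not pass on rescaled values.

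**Figure D5:**
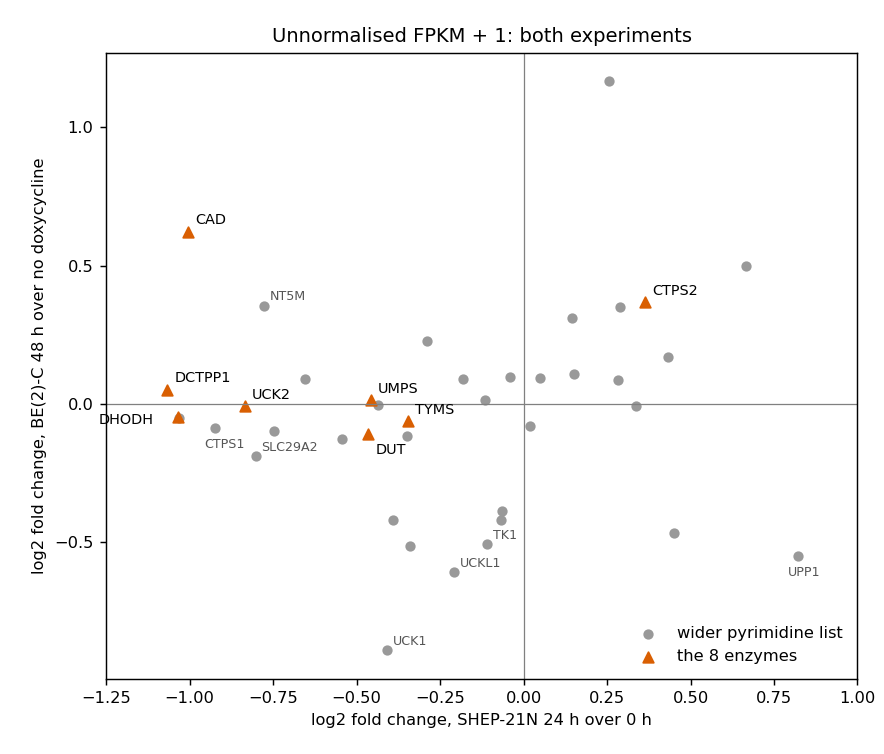
Log2 fold change on unnormalised FPKM + 1 in SHEP-21N at 24 h over 0 h (horizontal axis) and in BE(2)-C at 48 h over no doxycycline (vertical axis). Triangles are the 8 enzymes and grey dots 32 further genes of pyrimidine metabolism tested in both experiments. CAD lies at -1.0 and +0.62, CTPS2 at +0.36 and +0.37, and the other 6 enzymes lie left of 0 and within 0.11 of 0 on the vertical axis.

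The genes whose course was most like that of CAD and of TYMS differed between the experiments. Likeness is Pearson's r over all libraries of an experiment, on log2 values centred on the median gene, given as a description because libraries of a group share their time. In SHEP-21N cells, over 20 libraries, RAVER1 (0.993), CHERP (0.990) and SAFB (0.987) were closest to CAD, and SUMO3 (0.967), USP39 (0.966) and POLR2C (0.964) to TYMS. Over 18 BE(2)-C libraries, MLH3 (0.925), ZRANB3 (0.912) and FOSL2 (0.903) were closest to CAD, and RHEB (0.976), U2AF1 (0.972) and UTP18 (0.965) to TYMS. Among the enzymes themselves, DHODH and UCK2 were most alike in SHEP-21N cells (0.950), and CAD and CTPS2 were least alike (-0.79). CAD and CTPS2 were in BE(2)-C cells among the more alike pairs (0.836), while CAD and DUT were least alike (-0.54). These values carry the limit of centring given above for UCK2, TYMS and DUT, with BE(2)-C library medians from 2.09 to 4.82 (log2). Its part in the correlations was not tested.

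Reads of some of these genes cannot be placed with full certainty. In the GENCODE annotation 6 of the 8, all but CAD and DHODH, overlap a gene on the other strand, and the labels do not state whether counting used strand. TYMS overlaps TYMSOS and ENOSF1; ENOSF1 averaged 2.81 ± 0.191 unnormalised FPKM at 24 h and 3.08 ± 0.215 at 0 h in SHEP-21N cells. DUT has 8 annotated pseudogenes named after it and TYMS has 2, with which reads could be shared.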

How the data were processed

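Polyadenylated RNA was sequenced in 20 SHEP-21N and 18 BE(2)-C libraries with ERCC spike-ins, which per the labels' protocols were added at lysis after cells had been counted. Of 49 listed samples 11, with DMSO or JQ1, were not analysed here. The submitters' processing notes name HISAT, Cufflinks 2.0.0 and hg19. FPKM were deposited by the authors both unnormalised and rescaled to spike-ins; how they rescaled is not stated in the labels. FPKM keep no read number, so the depth is unknown and the spread between libraries stands in for it. Columns were matched to groups by name.

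Here, genes with a mean of at least 1 unnormalised FPKM were tested across the whole table (11867 and 11433) with limma 3.58.1 in R 4.3.3 on log2(rescaled FPKM + 1), with 1 mean per time and an intensity trend. Adjusted p is the Benjamini-Hochberg value over all tested genes, with a threshold of 0.05. The code was tested on simulated data. Alternatives were unnormalised or median-centred values, a pseudocount of 0.1, no filter or a filter at 5 FPKM, no trend, the compared groups alone, a replicate block, and each library left out. Further genes named were MYCN, TWIST1, the paralogs CTPS1, UCK1 and UCKL1, up to 8 of a wider list per experiment by adjusted p, and the 3 most like CAD and TYMS. The enzymes, lists and motifs were chosen with earlier results of these data known. ENOSF1 and UPP1 in SHEP-21N cells, and single markers outside these rules, were named after their values were seen. So were the wider-list genes named as higher on unnormalised values. Promoters are from RefSeq, GRCh38.p14, not the build of the files.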

Additional observations from a re-analysis of the deposited data

Results flagged for a closer look

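Effects at the last 2 times of an experiment were compared by limma's test of one time against the other, on all libraries. In BE(2)-C cells all 8 enzymes differed on the rescaled scale, being lower at 48 h than at 24 h on the log2 scale: CAD by -0.94, CTPS2 by -1.05, DCTPP1 by -1.35, DHODH by -1.14, DUT by -1.42, TYMS by -1.45, UCK2 by -1.31 and UMPS by -1.29, beside a median of -1.16 over all tested genes. On unnormalised values CAD was higher at 48 h than at 24 h, by 0.39. In SHEP-21N cells, on unnormalised values, CTPS2 was higher at 24 h than at 16 h by 0.23, while TYMS (-0.14) and UMPS (-0.25) were lower. The groups hold 2 or 3 libraries, too few for a test of single libraries that stand apart.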

How the results depend on the processing

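With no read counts, precision rests on 2 or 3 libraries a group. Counts of enzymes lower and higher, against the main rescaled counts, were as follows. On unnormalised values SHEP-21N cells had 4 and 1 at 4 h, 5 and 1 at 6 and 8 h, 7 lower at 16 h, 1 higher at 24 h, and 2 and 1 at 24 against 16 h. Centring gave 2 and 1, 5 and 1, 6, 1, and 1 and 1. Of all 11867 genes on centred values, 1619 were lower and 1599 higher at 4 h, 2864 and 3217 at 6 h, and 2744 and 2857 at 8 h. At 16 h these counts were 3013 and 2581, at 24 h 3823 and 3515, and at 24 against 16 h 1367 and 1373. In BE(2)-C cells unnormalised and centred values both gave 1 higher at 24 h and 2 higher at 48 h, with 0 (unnormalised) and 3 (centred) lower at 48 h. At 48 against 24 h both gave 0 lower, and unnormalised values 1 higher. Over the course 2 of 8 changed on either, beside 32.8% (unnormalised) and 44.0% (centred) of genes, while on the rescaled scale all 8 did, beside 96.0%. Of 11433 genes on centred values, 915 were higher at 24 h, and 2500 were lower and 3496 higher at 48 h. No filter left 1 lower at 6 and 8 h, and the compared groups alone gave 4 at 8 h.

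Directions turned in these cases. Unnormalised and centred log2 changes were 0.23 and 0.25 for CTPS2 at 24 against 16 h in SHEP-21N cells. In BE(2)-C cells they were 0.21 and 0.21 for CTPS2 at 24 h, and at 48 h 0.62 and 0.46 for CAD and 0.37 and 0.33 for CTPS2. Unnormalised values alone turned UMPS (0.015) and DCTPP1 (0.053) at 48 h, and centring alone DHODH (0.13). At 48 against 24 h they were 0.39 and 0.24 for CAD and 0.16 and 0.12 for CTPS2, with UCK2 (0.022) and DCTPP1 (0.038) unnormalised and DHODH (0.033) centred. The alternatives differ in their scaling by construction. At 48 h in BE(2)-C cells the 1 FPKM added before centring also moves abundant genes down against the median gene.

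With 1 library left out, rescaled lower counts ran from 0 to 2 at 6 and 8 h, 0 to 4 at 16 h, 3 to 7 at 24 h and 0 to 7 at 24 against 16 h. Unnormalised lower counts ran from 0 to 5 at 4 h (higher 0 to 1), 3 to 5 at 6 h and 1 to 2 at 24 against 16 h. In BE(2)-C cells unnormalised higher counts ran from 0 to 1 at 12 h, where DCTPP1 lay between -0.19 and 0.16, the higher value without no-doxycycline library number 1, 1 to 3 at 24 h, and 0 to 1 at 48 against 24 h. Leave-out, block, pseudocount and no-filter fits on unnormalised values were added after seeing the data; no filter gave 1 lower at 4 h and 0 higher at 48 against 24 h.

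Library numbers did not pair samples: correlations of same-numbered deviations lay between -0.24 and 0.18, and in none of 26 sets were all over 0.1. The replicate block left 1 lower at 8 and 16 h on rescaled values, and on unnormalised values 2 at 4 h, 1 at 24 against 16 h and 0 higher at 48 against 24 h in BE(2)-C cells. It changed 8 of 208 calls of single enzymes; over the SHEP-21N course DUT (adjusted p = 0.083) and UMPS (0.067) no longer passed limma's F test.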
